A study of Homo sapiens with 15 samples.

Results

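The genes described here are the D cyclins CCND1, CCND2 and CCND3, the E cyclins CCNE1 and CCNE2, their kinases CDK4, CDK6 and CDK2, the phosphatase CDC25A and the F-box protein SKP2. They were chosen by symbol, with earlier results of these data known, and all 10 were found among the 60670 genes of the count table. All 10 passed the filter on low counts, CCND2 only through the GNF-7 group at 24 h.

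RNA was sequenced from HT-1080, an established human fibrosarcoma line, in 5 groups of 3 libraries labelled as biological replicates. Nothing in the labels says that these were separate cultures, so p-values measure the spread between these libraries. Cycling cells received the vehicle DMSO for 6 h. The senescent groups had carried dominant negative TRF2, a protein that shields chromosome ends, for 6 days and were then given DMSO for 6 h, 1 uM GNF-7 for 6 h, DMSO for 24 h or 1 uM GNF-7 for 24 h. The compound GNF-7 inhibits tyrosine kinases, and the title of the study speaks of activation of GCN2 by it. All groups are the same line, grown at 5% oxygen in medium with tetracycline-free serum, and no cycling cells treated with GNF-7 and no cycling cells at 24 h were analysed here.

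Progress through G1 depends on cyclins that switch on cyclin-dependent kinases. D cyclins respond to growth signals and pair with CDK4 or CDK6, which phosphorylate the retinoblastoma protein RB and so release E2F transcription factors. E2F then drives genes of DNA replication together with the E cyclins, which pair with CDK2, while CDC25A removes inhibitory phosphates from CDK2 and SKP2 marks the CDK inhibitor p27 for destruction. Senescent cells are known to have left this cycle for good, with high levels of CDK inhibitors such as p21.

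Library totals ranged from 25991007 to 32323393 counts. TERF2, the gene of TRF2, was at 58.2 ± 3.65 CPM (counts per 1000000 of the TMM-scaled library size, mean ± SD, n = 3) in cycling cells. It was at 287 ± 8.17 CPM in senescent cells in vehicle at 6 h and at 222 ± 8.60 CPM with GNF-7. At 24 h it was at 220.0 ± 7.26 CPM in vehicle and 132 ± 5.38 CPM with GNF-7, and mutant and endogenous transcripts are counted together here. Mesenchymal markers were high (VIM 3346 to 4499 CPM), and of 11 epithelial, blood and endothelial markers the highest was PECAM1 at 1.06 CPM. The share of counts from mitochondrial genes was 3.75% to 5.01% in cycling cells, 11.2% to 12.4% in senescent vehicle cells at 6 h, 13.2% to 15.3% with GNF-7 at 6 h, 15.1% to 18.7% in vehicle at 24 h and 22.6% to 24.1% with GNF-7 at 24 h. TERF2 and the mitochondrial share thus moved with the groups compared below, and their part in the results was not tested, except that leaving mitochondrial genes out of the library sizes was among the alternatives. In bulk RNA, fewer cells with a transcript and less of it per cell cannot be told apart.

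In senescent against cycling cells, both in vehicle at 6 h, 8 of the 10 genes were lower and 1, CCND1, was higher (edgeR quasi-likelihood test, Benjamini-Hochberg adjusted p under 0.05 over 18563 genes). The largest falls were those of CCNE2, SKP2 and CDC25A. Over all genes tested, 34.4% were called lower and 35.6% higher in this comparison. The median log2 fold change was -0.83 over the 10 genes, -0.94 without CCND2, and 0.06 over all genes tested. The 3 libraries of each group did not overlap for 9 of the 10 genes, CCND2 being the exception, against 71.5% of all genes.

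GNF-7 for 6 h lowered 8 of the 10 genes in senescent cells and raised CCND2 and CDK4, where 21.4% of all genes were called lower and 17.9% higher. After 24 h, 7 were lower, CCND2 and CDK4 were higher and CCNE1 was not called, against 29.7% of all genes lower and 29.3% higher. CCND2 entered through its high counts in the last group, and among the other 9 genes 8 were lower and 1 higher at 6 h, and 7 lower and 1 higher at 24 h. The median of the 10 genes was -0.46 at 6 h and -0.99 at 24 h (-0.47 and -0.99 without CCND2), while that of all genes was 0.01 and 0.04. Groups did not overlap for 10 of the 10 genes at 6 h, against 47.7% of all genes, and for 9 of 10 at 24 h, against 63.2%, with CCNE1 overlapping. Both counts include CCND2, whose separation at 24 h is a description only, since it entered through its counts in that group. The comparison with cycling cells and that of GNF-7 at 6 h use the same senescent vehicle libraries, so their values are given side by side only.

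**Figure D1:**
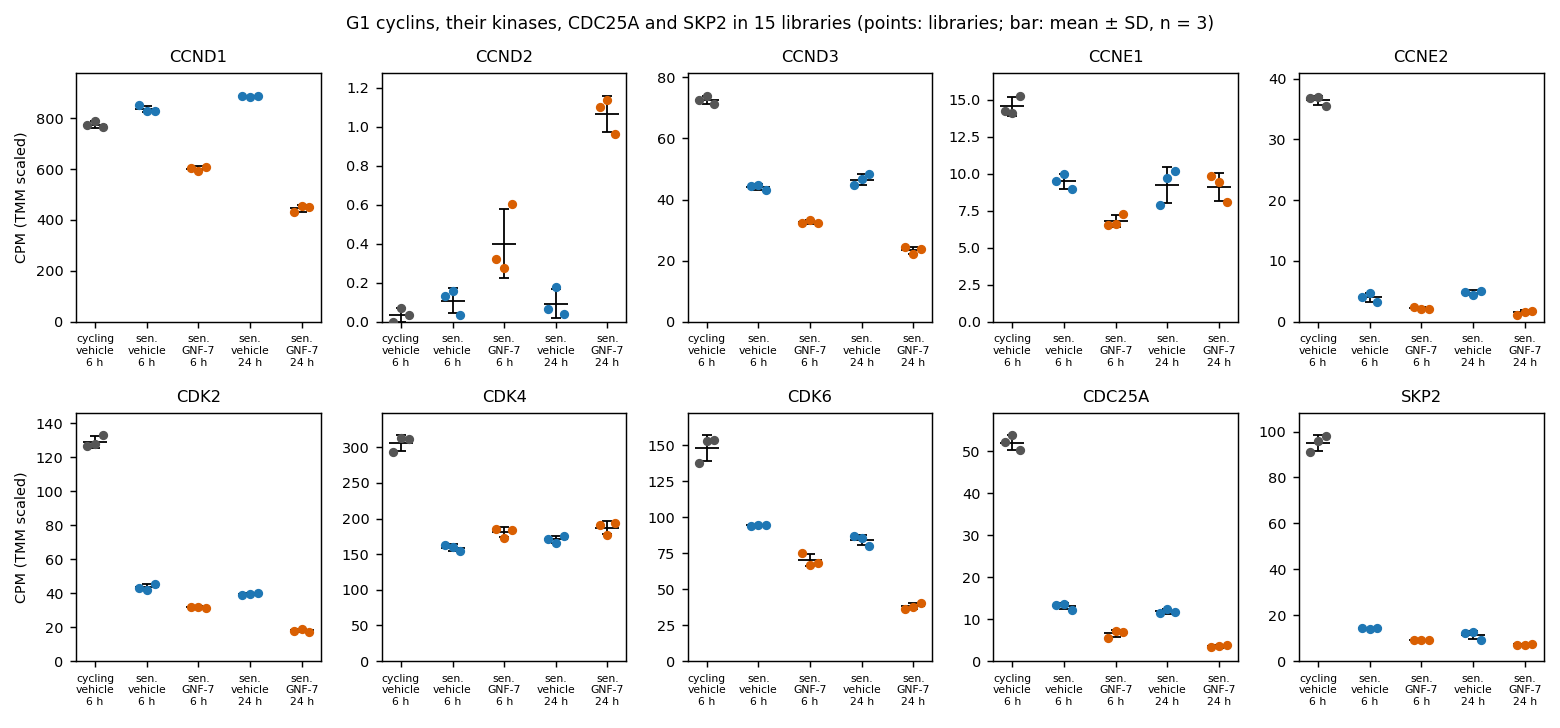
Level of each of the 10 genes in every library, in CPM on a linear axis from 0, with the 5 groups along the horizontal axis (sen. stands for senescent), 1 point per library and a bar for the mean ± SD of 3 libraries. CCND1 is at 828 to 888 CPM in senescent vehicle libraries and at 430 to 455 CPM with GNF-7 at 24 h, SKP2 is at 91.3 CPM or more in cycling libraries and at 14.4 CPM or less in all others, and CCND2 is highest with GNF-7 at 24 h.

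**Figure D2:**
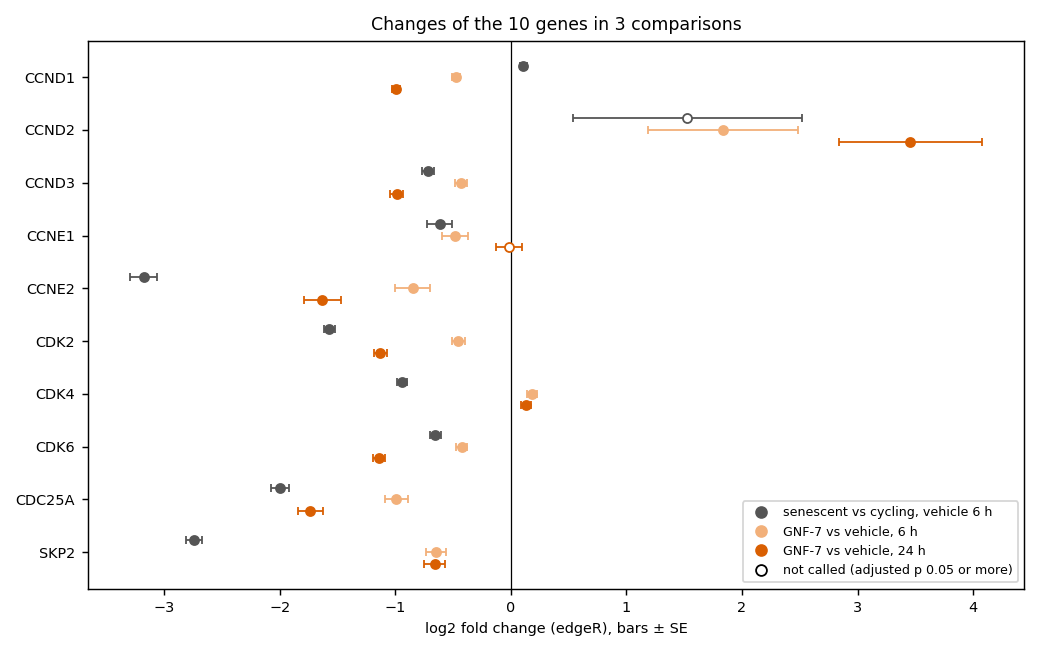
Log2 fold change of each gene in 3 comparisons, with bars for ± SE, and open points for values that were not called. Most genes lie left of 0 in all 3, CDK4 crosses from the left to the right of 0 between senescence and GNF-7, and CCNE1 lies at 0 with GNF-7 at 24 h.

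Of the D cyclins, CCND1 (ENSG00000110092, GRCh38 chromosome 11, 69641087 to 69654474, plus strand) was the most abundant. It stood at 772, 790 and 764 CPM in the cycling libraries and at 851, 829 and 828 CPM in senescent cells in vehicle at 6 h. All senescent libraries were thus higher, by a log2 fold change of 0.11 (edgeR adjusted p = 0.00263, SE 0.03), beside an all-gene median of 0.06. With GNF-7 the libraries were at 604, 592 and 610 CPM at 6 h, a log2 fold change of -0.47 (edgeR adjusted p = 2.93e-19, SE 0.03). At 24 h vehicle libraries were at 888, 884 and 887 CPM and GNF-7 libraries at 430, 455 and 451 CPM. CCND1 was therefore at 0.503 times its vehicle level after 24 h (log2 fold change -0.99 ± 0.03 SE, edgeR adjusted p = 2.38e-35), and no GNF-7 library reached the lowest vehicle library. The order of its levels was vehicle at 24 h, vehicle at 6 h, cycling, GNF-7 at 6 h and GNF-7 at 24 h, with no overlap between neighbours. The step between the vehicle groups was not called (log2 fold change 0.08, edgeR adjusted p = 0.0613). With total counts without a composition factor it changed sign (-0.0263). LTO1, which overlaps CCND1 exons on the other strand, went the other way under GNF-7, from 27.6 to 34.5 CPM at 6 h and from 29.4 to 44.1 CPM at 24 h.

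CCND3 (ENSG00000112576, chromosome 6, 41934933 to 42050357, minus strand) pairs with the same kinases, but its level went the other way in senescence. It was at 72.7, 73.9 and 71.2 CPM in cycling cells and at 44.4, 44.9 and 43.0 CPM in senescent cells in vehicle at 6 h, a log2 fold change of -0.72 (edgeR adjusted p = 3.49e-19, SE 0.05). GNF-7 took it to 32.3, 33.5 and 32.4 CPM at 6 h, where it was lower in 3 of 3 libraries (log2 fold change -0.43 ± 0.06 SE, edgeR adjusted p = 1.7e-09). At 24 h the vehicle libraries stood at 44.6, 46.6 and 48.3 CPM and the GNF-7 libraries at 24.4, 22.2 and 23.7 CPM. That fall, -0.99 on the log2 scale (edgeR adjusted p = 1.99e-23, SE 0.06), was the same size as that of CCND1 to 2 decimals, and the vehicle libraries of both times overlapped.

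CCND2 (ENSG00000118971, chromosome 12, 4273772 to 4305350, plus strand) was close to absent. Raw counts were 0 to 2 per library in cycling cells, 1 to 5 in vehicle at each time, 8 to 19 with GNF-7 at 6 h and 29 to 35 with GNF-7 at 24 h. Its mean with GNF-7 at 24 h, where it was highest, was 1.07 ± 0.09 CPM. The ratio of its summed counts per library size, with an exact 95% interval for counting error only, was 3.70 (1.80 to 8.35) for GNF-7 at 6 h. For GNF-7 at 24 h the ratio was 11.6. Against cycling cells the senescent ratio of 3.41 had an interval that includes no change (0.88 to 19.3), and the edgeR adjusted p was 0.166. For GNF-7 at 6 h the edgeR adjusted p was 0.0193 (log2 fold change 1.84, SE 0.65). The log2 fold change at 24 h was 3.46 (SE 0.62). This value and the ratio at 24 h are given as a description, since CCND2 was tested at all only because it passed the filter in that group. The call at 6 h was lost without replicate 3 of vehicle (log2 fold change 1.44, adjusted p = 0.107) and without replicate 3 of GNF-7 (1.41, adjusted p = 0.149). CCND2-AS1, which overlaps CCND2 exons on the other strand, had at most 3 counts per library in vehicle at 6 h, at most 2 in vehicle at 24 h and up to 35 with GNF-7 at 24 h (1.02 ± 0.11 CPM), and AC008012.1 overlaps it on the same strand. Reads of the pair cannot be told apart if strand was not used in counting, which is not given in the sources used here.

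To set the D cyclins against each other, counts were divided by exon length. CCND1 made up 92.8% ± 0.04 of the 3 D cyclins per kilobase in cycling cells and 95.8% ± 0.09 in senescent vehicle cells at 6 h (SD, n = 3). With GNF-7 the share was 95.6% ± 0.13 at 6 h and 95.7% ± 0.30 at 24 h, where the vehicle share was 95.8% ± 0.16, and the libraries of vehicle and GNF-7 overlapped. The share moved by -0.16 points with GNF-7 at each time, and by 3.02 points between cycling and senescent cells. An exact two-sided permutation test of 3 against 3 libraries cannot go below p = 0.1, the value found for the senescence difference (0.2 adjusted over the 20 share comparisons made). For GNF-7 the same exact test gave p = 0.3 at 6 h and p = 0.5 at 24 h. CCND3 made up nearly all of the rest, 7.23% ± 0.04 in cycling cells and between 4.19% and 4.33% in the senescent groups, and CCND2 reached 0.155% ± 0.01 with GNF-7 at 24 h.

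CDK4 and CDK6, the partners of the D cyclins, diverged under GNF-7. CDK4 (ENSG00000135446, chromosome 12, 57747727 to 57756013, minus strand) was at 293, 313 and 312 CPM in cycling cells and at 163, 161 and 154 CPM in senescent cells in vehicle at 6 h. This fall of -0.94 on the log2 scale (edgeR adjusted p = 1.18e-30, SE 0.04) left no overlap between the groups. With GNF-7 CDK4 was at 185, 173 and 184 CPM at 6 h, above every vehicle library of that time, with a log2 fold change of 0.18 (edgeR adjusted p = 0.000149, SE 0.04). At 24 h vehicle libraries were at 171, 166 and 176 CPM and GNF-7 libraries at 191, 177 and 194 CPM. That rise of 0.13 (edgeR adjusted p = 0.00384, SE 0.04) left the groups apart, with 1 GNF-7 library close to the highest vehicle library. Both rises were small, at percentiles 67.5 (6 h) and 56.3 (24 h) of the log2 fold changes of all genes, whose medians were 0.01 and 0.04. TSPAN31, on the other strand over CDK4 exons, ran the other way, at 17.9 CPM in cycling cells, 37.7 and 33.6 CPM in vehicle and GNF-7 at 6 h, and 43.8 and 29.3 CPM at 24 h.

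CDK6 (ENSG00000105810, chromosome 7, 92604921 to 92836594, minus strand) fell in each of these comparisons. Its libraries were at 138, 153 and 154 CPM in cycling cells, 93.4, 94.2 and 94.8 CPM in senescent cells in vehicle and 74.9, 66.8 and 68.2 CPM with GNF-7 at 6 h. The log2 fold change was -0.65 (edgeR adjusted p = 1.25e-19, SE 0.05) for senescence and -0.43 (edgeR adjusted p = 3.5e-11, SE 0.05) for GNF-7 at 6 h. At 24 h vehicle libraries were at 86.6, 85.4 and 80.1 CPM and GNF-7 libraries at 36.4, 37.5 and 40.4 CPM, a log2 fold change of -1.14 (edgeR adjusted p = 9.52e-29, SE 0.05). After 24 h of GNF-7, CDK6 was therefore at 0.453 times its vehicle level, and the 5 groups did not overlap with their neighbours in the order of levels.

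Per kilobase of exon, CDK6 was the minor kinase throughout, and its share of the CDK4 and CDK6 sum was 11.1% ± 0.25 in cycling and 13.3% ± 0.42 in senescent vehicle cells at 6 h. GNF-7 lowered the share to 9.10% ± 0.38 at 6 h, and from 11.3% ± 0.65 to 5.00% ± 0.27 at 24 h, with no overlap between libraries. In vehicle alone the share moved by -1.98 points from 6 h to 24 h, again without overlap, and at 24 h it overlapped that of cycling cells. Each of these differences had the smallest p that an exact permutation test of 3 against 3 libraries can give, 0.1 (0.2 adjusted over 20). The value depends on the length used, because CDK6 has long untranslated regions. With coding length the CDK6 share was 31.4% in vehicle and 15.9% with GNF-7 at 24 h.

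**Figure D3:**
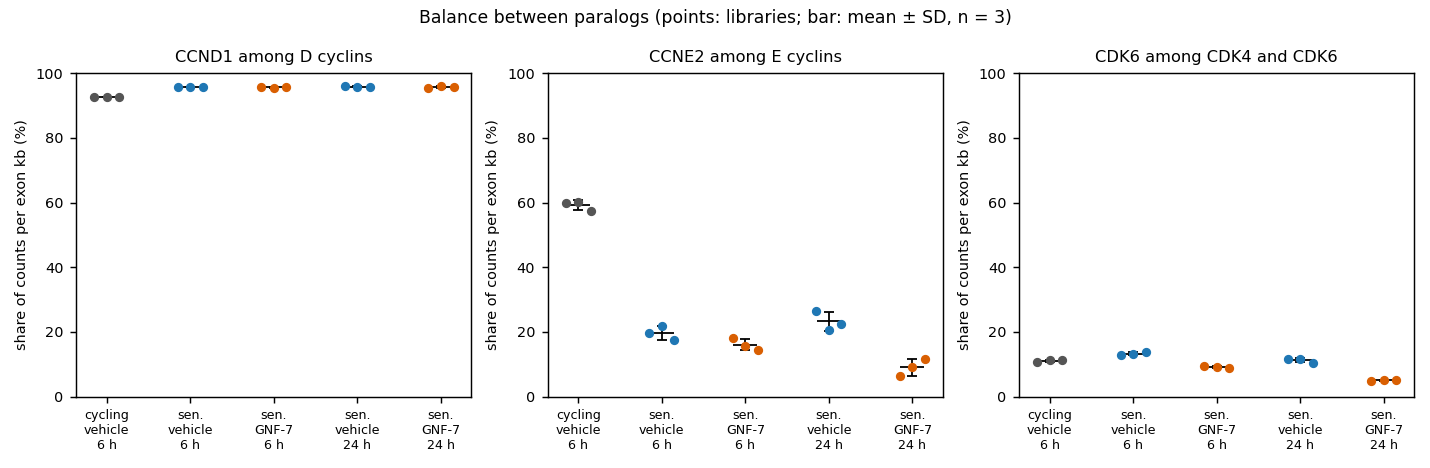
Share of each library's counts per kilobase of exon, in percent from 0 to 100, held by CCND1 among the 3 D cyclins, by CCNE2 among the E cyclins and by CDK6 among CDK4 and CDK6, with 1 point per library in the 5 groups and a bar for the mean ± SD of 3. The CCND1 share lies between 92.7% and 96.0% in all libraries, while the shares of CCNE2 and CDK6 are lowest with GNF-7 at 24 h.

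The bases before the CDK4 start are shown because CDK4 alone of the abundant genes of the set rose with GNF-7, though by little. In the 250 bases upstream of the RefSeq start (GRCh38.p14, minus strand), 3 copies of the E-box CACGTG, a motif that MYC and related factors can bind, were found by a search of both strands. The word reads the same on both strands. Each copy is given 5′ to 3′ with the 12 bases on either side, the E-box in capitals, and the first pair of stretches overlap each other.
CDK4 at chr12:57752509-57752538: atgtcaagcggtCACGTGtgatagcaacag
CDK4 at chr12:57752489-57752518: atagcaacagatCACGTGgctgccatcgcc
CDK4 at chr12:57752394-57752423: atgggtggcggtCACGTGcccagaacgtcc
At least 1 such E-box was in 6.34% of 35116 windows of the same length before RefSeq starts, and 3 or more were in 28 windows (0.0797%), a count made after the 3 copies had been seen. MYC itself was lower in senescence (log2 fold change -0.93, edgeR adjusted p = 9.38e-19) and with GNF-7 at 6 h (-0.24, adjusted p = 0.0065) and 24 h (-0.35, adjusted p = 8.22e-05). A match is a description of letters and not evidence of binding.

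The E cyclins, the next step of G1, parted in senescence. CCNE2 (ENSG00000175305, chromosome 8, 94879770 to 94896678, minus strand) was at 36.7, 36.9 and 35.5 CPM in cycling cells and at 4.01, 4.77 and 3.26 CPM in senescent cells in vehicle at 6 h. Its log2 fold change of -3.18 (edgeR adjusted p = 1.32e-33, SE 0.12), a 9.03-fold fall, was the largest of the 10 genes. GNF-7 libraries were at 2.46, 2.09 and 2.13 CPM at 6 h, a further -0.85 (edgeR adjusted p = 5.22e-06, SE 0.15). At 24 h CCNE2 was at 4.91, 4.37 and 5.07 CPM in vehicle and at 1.17, 1.62 and 1.83 CPM with GNF-7, where it rested on 35 to 55 counts per library. The fall there was -1.63 (edgeR adjusted p = 1.14e-13, SE 0.16), with no overlap between groups. INTS8, which overlaps CCNE2 exons on the other strand, was at 57.9, 49.7, 43.6, 45.3 and 48.4 CPM in the 5 groups in the order of the opening.

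CCNE1 (ENSG00000105173, chromosome 19, 29811898 to 29824308, plus strand) changed less, and with GNF-7 it was called at 6 h and not at 24 h. It was at 14.3, 14.1 and 15.3 CPM in cycling cells, 9.54, 9.98 and 8.95 CPM in senescent cells in vehicle and 6.52, 6.58 and 7.26 CPM with GNF-7 at 6 h. Both steps passed the test, with log2 fold changes of -0.62 (edgeR adjusted p = 6.97e-07, SE 0.11) and -0.48 (edgeR adjusted p = 0.000378, SE 0.11). At 24 h vehicle libraries spanned 7.88, 9.70 and 10.2 CPM and GNF-7 libraries 9.85, 9.42 and 8.07 CPM. The groups overlapped in full, and the log2 fold change of -0.02 (SE 0.11) had an edgeR adjusted p of 0.905. In order of level CCNE1 was highest in cycling cells and lowest with GNF-7 at 6 h, while vehicle at 6 h, vehicle at 24 h and GNF-7 at 24 h overlapped between them.

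Per kilobase of exon, CCNE2 made up 59.2% ± 1.55 of the E cyclins in cycling cells and 19.6% ± 2.13 in senescent vehicle cells at 6 h. With GNF-7 the share was 16.0% ± 1.76 at 6 h, overlapping vehicle, and 9.04% ± 2.58 at 24 h against 23.2% ± 3.00 in vehicle. CCNE2 was thus the major E cyclin in cycling cells and the minor one in each senescent group. The senescence and 24 h differences had the smallest p the exact permutation test allows, 0.1 (0.2 adjusted over 20).

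CDK2 (ENSG00000123374, chromosome 12, 55966769 to 55972784, plus strand), the kinase of the E cyclins, was at 126, 128 and 133 CPM in cycling cells. It was at 43.1, 41.8 and 45.3 CPM in senescent cells in vehicle and at 31.8, 32.1 and 31.2 CPM with GNF-7 at 6 h. The corresponding log2 fold changes were -1.57 (edgeR adjusted p = 5.87e-37, SE 0.05) and -0.45 (edgeR adjusted p = 1.77e-10, SE 0.05). At 24 h CDK2 was at 39.1, 39.2 and 40.1 CPM in vehicle and at 17.6, 19.1 and 17.3 CPM with GNF-7. This log2 fold change of -1.13 (edgeR adjusted p = 7.67e-26, SE 0.06) was close to that of CDK6, and all 5 groups were apart from their neighbours in the order of levels.

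CDC25A (ENSG00000164045, chromosome 3, 48157146 to 48188402, minus strand) had the largest fall of the set with GNF-7 at each time. Libraries were at 52.1, 53.9 and 50.3 CPM in cycling cells, 13.3, 13.6 and 12.2 CPM in senescent cells in vehicle and 5.58, 7.16 and 6.97 CPM with GNF-7 at 6 h. That made a log2 fold change of -2.00 (edgeR adjusted p = 1.61e-31, SE 0.08) for senescence and -0.99 (edgeR adjusted p = 1.99e-13, SE 0.10) for GNF-7. At 24 h vehicle libraries were at 11.4, 12.4 and 11.7 CPM and GNF-7 libraries at 3.24, 3.48 and 3.92 CPM, a log2 fold change of -1.74 (edgeR adjusted p = 4.83e-22, SE 0.11). After 24 h of GNF-7, CDC25A was at 0.300 times vehicle. CCNE2 came close with GNF-7, at -0.85 (SE 0.15) at 6 h and -1.63 (SE 0.16) at 24 h, and the order between them was not tested.

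The promoter of CDC25A is shown because E2F factors, released when RB is phosphorylated, drive it. The 250 bases before its RefSeq start hold 1 of the E2F words searched (TTTCCCGC, TTTCGCGC, TTTGCCGC and TTTGGCGC, both strands), 44 bases before the start. They also hold 2 CCAAT boxes on the opposite strand, 110 and 58 bases before the start. All are in capitals below, the CCAAT boxes read as ATTGG, and none overlap.
CDC25A at chr3:48188418-48188667: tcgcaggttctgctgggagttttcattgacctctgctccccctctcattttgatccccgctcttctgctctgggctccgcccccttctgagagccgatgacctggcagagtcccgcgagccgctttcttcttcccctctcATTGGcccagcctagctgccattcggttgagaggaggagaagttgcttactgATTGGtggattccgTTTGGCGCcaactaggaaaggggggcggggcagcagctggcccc
An E2F word was in 2.79% and a CCAAT box in 32% of the 35116 windows. RefSeq windows were at hand for 6 of the 10 genes, 9 windows in all. Besides those of CDK4 and CDC25A, the windows of SKP2, CCNE1, CDK6 and CCND3 were searched, and of these a pair of CCND3 windows held 1 CCAAT box each and the others none of the 3 motifs.

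SKP2 (ENSG00000145604, chromosome 5, 36151989 to 36184319, plus strand) had the smallest senescence p of the 10 genes and the second largest fall after CCNE2. It was at 91.3, 96.0 and 97.8 CPM in cycling cells and at 14.3, 14.0 and 14.4 CPM in senescent cells in vehicle at 6 h, a 6.68-fold fall (log2 fold change -2.74 ± 0.07 SE, edgeR adjusted p = 9.91e-42). GNF-7 libraries were at 9.04, 9.02 and 9.20 CPM at 6 h (log2 fold change -0.65 ± 0.08 SE, edgeR adjusted p = 2.66e-09). At 24 h SKP2 was at 12.2, 12.5 and 9.37 CPM in vehicle and at 6.95, 7.18 and 7.50 CPM with GNF-7. The fall there, -0.66 (edgeR adjusted p = 4.32e-09, SE 0.09), was close in size to that at 6 h, and replicate 3 of vehicle stood below the other vehicle libraries.

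The effect of GNF-7 at 24 h was then compared with that at 6 h by a test of the difference itself. It was more negative at 24 h for 6 of the 10 genes and more positive for 1, where 18.0% of all genes were called in the negative and 12.8% in the positive direction. The 6 were CCNE2 (-0.78 ± 0.23 SE, edgeR adjusted p = 0.0052), CDC25A (-0.75, SE 0.15, 3.7e-05), CDK6 (-0.72, SE 0.07, 5.73e-13), CDK2 (-0.68, SE 0.08, 2.16e-10), CCND3 (-0.56, SE 0.08, 4.94e-08) and CCND1 (-0.52, SE 0.05, 1.98e-14). The median over the 10 genes was -0.54. Without CCND2 it was -0.56, with 6 of 9 genes lower, 1 higher and 2 not called. CCNE1 was the 1 gene called with a positive difference, 0.47 (edgeR adjusted p = 0.0185, SE 0.16). The CCNE1 call was lost without replicate 2 of vehicle at 6 h (0.43, adjusted p = 0.0507), replicate 1 of vehicle at 24 h (0.36, adjusted p = 0.0985) or replicate 1 of GNF-7 at 24 h (0.41, adjusted p = 0.0559). For CCND2, CDK4 and SKP2 the difference was not called, at 1.62 (SE 0.98), -0.05 (SE 0.06) and -0.01 (SE 0.12). The CCND2 value is a description only, since CCND2 passed the filter only through the GNF-7 group at 24 h.

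In vehicle alone, 24 h against 6 h, 2 of the 10 genes were lower and 0 higher by the edgeR test, against 9.29% of all genes lower and 9.26% higher. CDK6 fell by 0.16 on the log2 scale (edgeR adjusted p = 0.00981, SE 0.05) and SKP2 fell by 0.32 (edgeR adjusted p = 0.00292, SE 0.08). Without replicate 3 of vehicle at 24 h neither was called (adjusted p = 0.104 for CDK6 and 0.0994 for SKP2). At an unadjusted p under 0.05, 5 of the 10 passed, 3 lower (CDK2, CDK6 and SKP2) and 2 higher (CCND1 and CDK4), against 29.4% of all genes in either direction. DESeq2 called CDK2, CDK6 and SKP2 lower and CCND1 higher. The libraries did not overlap for 5 of the 10 genes, against 32.9% of all genes. The 5 were CCND1, CDK2, CDK4, CDK6 and SKP2, whose log2 fold changes ran from -0.32 to 0.10.

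Taking the levels per kilobase of exon, the order of the 10 genes changed between groups. In cycling cells CCND1 was highest at 160.5 ± 2.72 CPM per kilobase, followed by CDK4 at 96.6 ± 3.48, CDK2 at 33.1 ± 0.90 and SKP2 at 24.8 ± 0.89. With GNF-7 at 24 h CCND1 (92.2 ± 2.75) and CDK4 (59.1 ± 2.88) still led, and every other gene was at or below the 4.62 ± 0.25 CPM per kilobase of CDK2. SKP2 was then at 1.88 ± 0.07 and CDC25A at 0.86 ± 0.08, and CCNE1 at 3.57 ± 0.37 stood above CDK6 at 3.11 ± 0.17. These ranks hold for exon length only. By CPM with GNF-7 at 24 h, CDK6 (38.1) and CCND3 (23.4) stood above CDK2 (18.0) and CCNE1 (9.11). Their coding lengths are shorter, at 978 and 876 bases against 1038 and 1230, so both rank above CDK2 and CCNE1 per coding length. In cycling cells CDK6 (147.9 CPM) likewise passes CDK2 (128.9 CPM) per coding length.

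The surrounding pathway was counted through lists of genes, given with their counts and medians and with no test of the list. Their counts of lower and higher genes are to be read against 34.4% and 35.6% of all genes in senescence, 21.4% and 17.9% with GNF-7 at 6 h, and 29.7% and 29.3% at 24 h. The medians of all genes were 0.06, 0.01 and 0.04. Of 7 CDK inhibitors, CDKN2A and CDKN2B had 0 counts in every library, and 5 were tested. A count of 0 allows an expected count of up to 3 at 95% confidence, each library taken alone. CDKN1A, which encodes p21, rose in senescence from 186 ± 2.54 to 501 ± 8.96 CPM (log2 fold change 1.43, edgeR adjusted p = 1.14e-42). With GNF-7 it was at 518 ± 17.4 CPM at 6 h (0.05, edgeR adjusted p = 0.283), and at 24 h it fell from 559.8 ± 8.93 to 468 ± 8.95 CPM (-0.26, adjusted p = 1.31e-09). CDKN2C, an inhibitor of CDK4 and CDK6, fell in each comparison, by 1.77 on the log2 scale in senescence, by 0.71 with GNF-7 at 6 h and by 2.23 at 24 h. Of the 5 tested, 3 were lower and 2 higher in senescence (median -0.29), 2 lower at 6 h (median -0.03), and 3 lower and 1 higher at 24 h (median -0.26). The higher genes in senescence were near the share of all genes. The lower genes at 6 h were above it, but 5 genes are too few to read either way.

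Of the 13 RB and E2F proteins, 11 were lower in senescence (median -0.44), and E2F1 was at 66.9 ± 1.74 CPM in cycling and 9.66 ± 0.38 CPM in senescent cells in vehicle. With GNF-7 the list was mixed, with 7 lower and 3 higher at 6 h (median -0.17) and 8 lower and 4 higher at 24 h (median -0.43), the higher genes being near the share of all genes. E2F7 rose from 96.7 ± 1.91 to 159.6 ± 4.45 CPM at 6 h and from 97.9 ± 0.96 to 196 ± 6.29 CPM at 24 h. E2F8 went the other way, with log2 fold changes of -0.51 at 6 h (edgeR adjusted p = 0.0278) and -2.45 at 24 h (edgeR adjusted p = 6.63e-14). All 13 G1/S target genes, such as RRM2 and MCM4, were lower in senescence with a median of -2.28. At 6 h of GNF-7, 7 were lower and 2 higher (median -0.17), and at 24 h all 13 were lower (median -0.57). The difference between the times was negative for all 13, where 18.0% of all genes were called so.

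Among the 7 genes that control CDK phosphorylation, 7 were lower in senescence (median -1.09), 2 at 6 h (median -0.11), near the share of all genes, and 4 at 24 h of GNF-7 (median -0.25). PKMYT1, a kinase that inhibits CDK1, was among them each time, with log2 fold changes of -2.41, -0.53 and -1.53. Of the 5 cyclins and kinase of S, G2 and M phase, 5 were lower in senescence, 4 at 6 h and 5 at 24 h, with medians of -1.63, -0.40 and -0.95, and CDK1 had -2.70, -0.42 and -1.88. Of 11 genes of ubiquitin-dependent turnover, 7 were lower and 2 higher in senescence, 7 lower and 1 higher at 6 h, and 7 lower and 2 higher at 24 h, with medians of -0.21, -0.16 and -0.27. CKS1B, the cofactor of SKP2, fell by 2.19 on the log2 scale in senescence.

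The list labelled mitogen-driven factors upstream of cyclin D also holds genes, such as SPRY4, that growth signalling induces and that dampen it. Its 10 genes gave 7 lower and 1 higher in senescence, 4 lower and 2 higher at 6 h, and 4 lower and 3 higher at 24 h. The medians were -0.49, -0.17 and -0.01. The counts at 24 h were near the shares of all genes. ETV5, a factor induced by growth signalling, fell from 117 ± 3.01 to 57.9 ± 1.81 CPM in senescence. It rose with GNF-7 to 92.8 ± 0.99 CPM at 6 h and from 50.8 ± 1.40 to 133 ± 1.45 CPM at 24 h, while CCND1 fell at both times. ETV4 and SPRY4 were also higher at 24 h, at 0.97 and 0.76 on the log2 scale. Other members were lower with GNF-7, among them JUN (-0.74 at 6 h and -0.27 at 24 h) and, at 6 h only, FOSL1 (-0.41). At 24 h FOSL1 was at -0.01 and not called. The GNF-7 effect at 24 h minus that at 6 h was positive for JUN (0.47) and FOSL1 (0.40), against -0.52 for CCND1.

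**Figure D4:**
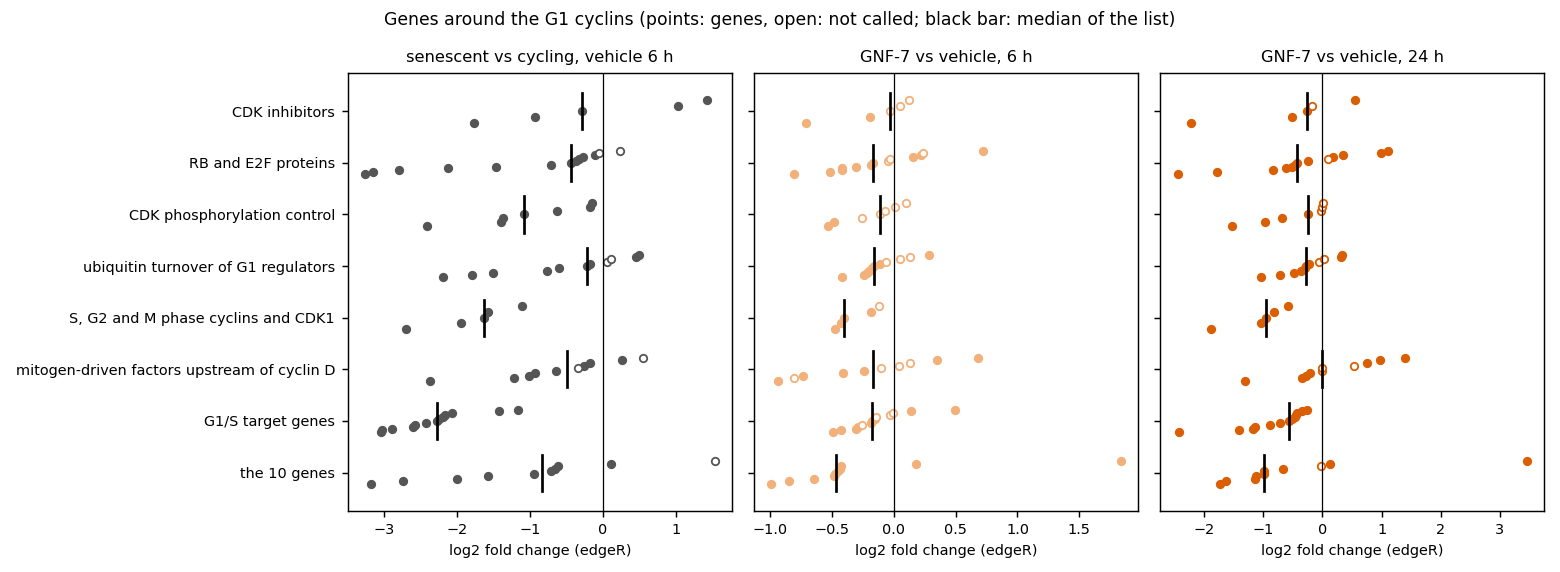
Log2 fold change of each gene of 7 lists around the G1 cyclins and of the 10 genes themselves, in 3 comparisons with their own horizontal axes, with filled points for called genes, open points for others and a black bar for the median. The G1/S target genes lie left of 0 in senescence and with GNF-7 at 24 h, and straddle 0 at 6 h.

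Over the 15 libraries, log2(CPM + 0.5) of the 10 genes ran together to different degrees, as a description over libraries that share 5 groups. Pearson's r was 0.989 between CDK2 and CDC25A and 0.978 between CCNE2 and SKP2, but 0.0319 between CCND1 and CDK4 and -0.93 between CCND1 and CCND2. Among 11233 genes, the pattern of CCND1 was most like that of ZFP36L1 and CCL2 (r = 0.991 for each). CDK2 was closest to CCT2, CDK4 to DHRS2, CDK6 to EIF4G1, CDC25A to PSMD11, SKP2 to ZW10, CCND3 to PREP and CCNE2 to GINS1, with r from 0.989 to 0.998. CCND2 was closest to PAPPA2 (r = 0.975) and CCNE1 had the loosest match of the set, EIF1AY (r = 0.948), with NCOA5 next (r = 0.947). With at most 5 counts of CCND2 in any vehicle library, its r values rest mainly on the GNF-7 libraries.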

How the data were processed

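The authors deposited 1 table of raw read counts per Ensembl gene, without normalization. Per the submitters' processing notes, bcl2fastq 2.20.0.422, STAR 2.7.9a, featureCounts 1.5.1 and GRCh38 were used. Per the labels' protocols the libraries came from a stranded mRNA kit. The annotation release and the strand setting are not given in the sources used here, so genes that overlap others are uncertain. Coordinates and lengths are from GENCODE release 29 on GRCh38, which holds 58452 of the 60670 identifiers, and 60400 had a symbol. A gene entry broken over 3 lines (ANK2) was left out.

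Counts of all 15 libraries were fitted together with edgeR 4.0.16 in R 4.3.3 (filterByExpr, TMM, robust quasi-likelihood test, a term per group), with Benjamini-Hochberg adjustment over 18563 genes. The biological coefficient of variation was 4.64%. All pairs of libraries within a group differed by more than sampling noise. Alternatives were RLE size factors, total counts, mitochondrial genes left out of library sizes, no filter or a mean of at least 5 CPM, DESeq2 1.42.0, limma voom 3.58.1, a replicate block, only the groups compared, coding length for shares, and each library left out in turn. Exact permutation tests used scipy 1.17.1. The code was tested on simulated data. Promoter windows are from RefSeq (GRCh38.p14), and CDK4 bases were limited because other transcripts run through them.

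The 10 genes and the lists were chosen with earlier results of these data known. Named are the 10 genes, TERF2, CDKN1A, MYC, up to 3 genes per list with the smallest p, and the genes most like each of the 10. Genes overlapping their exons were named besides, after their values were seen.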

Additional observations from a re-analysis of the deposited data

Results flagged for a closer look

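The change with GNF-7 was not the same at 24 h as at 6 h for 7 genes, by a test of the difference itself in the edgeR fit (adjusted p under 0.05). The log2 effect at 24 h minus that at 6 h was -0.52 for CCND1, -0.56 for CCND3, -0.78 for CCNE2, -0.68 for CDK2, -0.72 for CDK6 and -0.75 for CDC25A, so the fall of each was larger at 24 h. For CCNE1 it was 0.47, the only positive value among them, with a fall at 6 h and no call at 24 h. No group has more than 3 libraries, so no search for extreme values in single libraries was made, though each library was left out in turn.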

How the results depend on the processing

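Of 801 recomputed log2 fold changes of the 10 genes, 762 kept their direction and their side of the threshold, 7 lost the call, 15 gained one and 17 changed sign. The number of the 10 genes called was 9 in senescence under every alternative, 9 to 10 for GNF-7 at 6 h, 8 to 9 at 24 h and 6 to 7 for the difference of the effects. For vehicle at 24 h against 6 h it was 2, and it became 4 with total counts, 5 with a filter at a mean of 5 CPM, 4 with DESeq2 and 4 with only the groups compared, and ranged from 0 to 3 when 1 library was left out. All sign changes were of values that were not called. With total counts without a composition factor they were CCNE1 with GNF-7 at 24 h (0.0118), SKP2 in the difference (0.00293), and CCND1 (-0.0263), CCND3 (-0.0357) and CDK4 (-0.00793) in vehicle over time. With the filter at 5 CPM they were CCNE1 (0.0832) and SKP2 (0.0359) in the same comparisons. Leaving out 1 library at a time gave -0.129 to 0.0612 for CCNE1 with GNF-7 at 24 h, -0.128 to 0.0567 for SKP2 in the difference, and -1.01 to 0.139 for CCND2 and -0.114 to 0.0663 for CCNE1 in vehicle over time. Total counts moved the median of all genes by 0.133 in senescence and -0.11 in vehicle over time, where 12.5% of calls were then higher against 49.9%, and the filter at 5 CPM, which left CCND2 untested, by 0.151 and, for GNF-7 at 24 h, 0.101. The rise of CCND1 in senescence ranged from 0.09 to 0.26.

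Replicate numbers were not used as pairs: the correlation of the deviations of same-numbered libraries was -0.0353 to 0.0822. In 14 of 24 cases a library correlated best with its own number, where 8 would with no pairing, so a weak pairing was not shown to be absent. A replicate block left the number of the 10 genes called unchanged in senescence (9), GNF-7 at 6 h (10), GNF-7 at 24 h (9) and the difference (7), and made it 4 in vehicle over time. Shares per coding length in place of exon length changed in size, not in direction. The cause of these changes was not tested. Depth limits CCND2 most, with 35 counts or fewer per library.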
